A study of Homo sapiens with 33 samples.

Results

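The gene set was leukaemia inhibitory factor (LIF), oncostatin M (OSM), interleukin-6 (IL6) and the receptor and signalling genes IL6R, IL6ST, STAT3 and SOCS3. Its 7 genes were taken by symbol from the 85160 genes of a fragment count table, through their Ensembl identifiers, and all 7 passed the filter on low counts. The cells were NB4, an established human acute promyelocytic leukaemia line that carries the PML-RARA fusion and matures along the myeloid lineage when given all-trans retinoic acid (ATRA). Cells received 1 µM ATRA, or the solvent DMSO as control, and were harvested at 4, 12, 24, 72 and 120 h. Untreated cells at 0 h were the starting point. Each of the 11 groups had 3 biological replicates, numbered 2, 4 and 5 in the labels, and fresh medium with drug was added on day 3, with no statement of whether this came before or after the 72 h harvest. All groups were 1 cell line, so the results describe that line alone.

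Cytokines of the interleukin-6 family signal through gp130, the shared receptor chain that IL6ST encodes. IL-6 first binds its own receptor chain, the IL6R product, while LIF and oncostatin M bring gp130 together with the chains encoded by LIFR or OSMR. Janus kinases bound to these chains then phosphorylate STAT3, which enters the nucleus and switches on target genes, and SOCS3 is a target whose protein binds gp130 and the kinases and shuts the signal down. Myeloid cells are known as sources of these cytokines in inflammation.

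The upstream sequences of a ligand gene, the shared receptor gene and the feedback inhibitor gene are shown because these 3 genes moved upwards together late in ATRA treatment, and they are the stretches in which STAT and NF-kB letters were looked for. They are the 250 bases before the RefSeq start of IL6 (chr7:22726950-22727199, + strand), IL6ST (chr5:55994964-55995213, − strand) and SOCS3 (chr17:78360926-78361175, − strand), on GRCh38.p14 and written in the gene's direction. Capitals mark matches to an NF-kB pattern, GGG and CC separated by any 5 bases, on either strand, and overlapping matches run together.
IL6: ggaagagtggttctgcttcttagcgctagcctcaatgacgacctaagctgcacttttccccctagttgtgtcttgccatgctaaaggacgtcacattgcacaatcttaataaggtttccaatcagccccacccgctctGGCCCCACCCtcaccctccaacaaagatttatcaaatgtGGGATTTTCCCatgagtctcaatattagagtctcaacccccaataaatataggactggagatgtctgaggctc
IL6ST: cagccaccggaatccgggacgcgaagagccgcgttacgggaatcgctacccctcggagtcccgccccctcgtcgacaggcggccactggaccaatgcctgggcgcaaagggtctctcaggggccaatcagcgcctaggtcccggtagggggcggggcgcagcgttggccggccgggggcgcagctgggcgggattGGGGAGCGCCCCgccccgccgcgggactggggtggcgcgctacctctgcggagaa
SOCS3: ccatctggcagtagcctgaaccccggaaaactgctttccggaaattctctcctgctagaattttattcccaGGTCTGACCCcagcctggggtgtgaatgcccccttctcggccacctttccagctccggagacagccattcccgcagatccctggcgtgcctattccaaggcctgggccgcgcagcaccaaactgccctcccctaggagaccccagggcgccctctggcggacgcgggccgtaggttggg

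Windows of 5 member genes were searched on both strands (IL6, IL6R, IL6ST, STAT3 and SOCS3, the last with 2 start sites). The STAT pattern TTCNNNGAA and the AP-1 pattern TGANTCA had no match in any of these windows. Nor did AGGTCA, a single site of the retinoid pair, or the full pair of GGTCA and AGGTCA separated by any 5 bases. Of 35116 RefSeq windows of the same length, 6.57% held TTCNNNGAA, 6.57% TGANTCA, 12.1% AGGTCA and 0.0199% the pair. The NF-kB pattern matched in windows of all 5 genes, and in 54.4% of all windows, so such a match is common. In the IL6 window the letters GGGATTTTCC began 73 bases before the start. The absence of a match says only that these letters are not in these 250 bases.

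Library totals ran from 18341456 to 33490654 fragments (median 25927472), and levels are given in CPM, the fragment count of a gene scaled to a common library size. The lowest correlation between libraries of a group was 0.986. The label was checked against markers: of 10 early myeloid genes, 8 were above 1 CPM on average and ELANE and KIT were below it. The 10 together summed to 1202 to 1563 CPM in ATRA libraries and 9568 to 11726 CPM in DMSO libraries at 120 h. MPO made most of the DMSO sum, at 422.9 CPM with ATRA and 9624 CPM with DMSO at 120 h. PRTN3, AZU1, CTSG and CEBPA were also lower with ATRA then. SPI1 (344.8 and 69.2 CPM with ATRA and DMSO) and CEBPE (467.5 and 59.4 CPM) were higher, and CD33 had 42.2 and 42.7 CPM. A 7-gene monocyte and macrophage list, with no gene at 0 in all libraries (CD163 was at 0 in untreated cells), summed to 348 to 399.7 CPM with ATRA and 31.3 to 36.2 CPM with DMSO at 72 h, and to 658 to 766 CPM with ATRA and 28.99 to 32.5 CPM with DMSO at 120 h. It moved with the late rises below, and its part in them was not tested. Of 8 lymphocyte markers, 6 averaged under 1 CPM. CD79A was not among them, with 29.8 CPM with ATRA and 2.24 CPM with DMSO at 72 h. Nor was NCAM1, with 6.87 and 22.2 CPM. The lymphocyte list summed to 33.99 to 39.4 CPM with ATRA and 22.2 to 23.9 CPM with DMSO at 120 h. This sum was also higher with ATRA, and its part in the late rises was not tested. HBA1 and PF4 of the erythroid and megakaryocyte list were at 0 in every library. ITGA2B of that list had 2.18 CPM with ATRA and 4.75 CPM with DMSO at 72 h. A 9-gene list of epithelium, endothelium and fibroblasts, of which CDH1, COL1A1, COL1A2 and DCN averaged under 1 CPM, summed to 262 to 296 CPM with ATRA and 56.7 to 64.4 CPM with DMSO at 120 h. Most of the sum with ATRA was PECAM1, which myeloid cells also express, at 243.7 CPM with ATRA and 23.4 CPM with DMSO. This list also moved with the late rises, and its part in them was not tested. In bulk RNA, fewer cells of a type and less RNA per cell cannot be told apart.

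LIF had its highest level at 72 h of ATRA and was near 0 in all other groups except ATRA at 120 h. The gene (ENSG00000128342, chr22:30234352-30257992, − strand, GRCh38) encodes a secreted cytokine. At 72 h, LIF reached 104.2, 105.0 and 131.3 CPM in the ATRA libraries (2243, 2690 and 3359 fragments), against 0.0456, 0.0405 and 0.118 CPM in the DMSO libraries, which had 5 fragments together. The groups did not overlap. The log2 change was 10.58 ± 0.25 (SE; edgeR adjusted p = 4.41e-30), and 11.22 without replicate 5 of DMSO at 72 h, which held most of the DMSO fragments. At 120 h the ATRA libraries had 22.3, 27.1 and 21.9 CPM, against 0.124, 0.123 and 0.0346 CPM in DMSO libraries, a change of 7.97 ± 0.27 (adjusted p = 3.18e-25, edgeR). All 3 ATRA libraries at 120 h were below the lowest ATRA library at 72 h.

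Before 72 h, LIF showed a small response at 4 h. ATRA libraries then had 0.495, 0.479 and 0.643 CPM (45 fragments in all) and DMSO libraries had 0 fragments, which allows up to 0.0385 CPM at 3 counts over the group. LIF was thus at least 13.8-fold higher with ATRA at 4 h (edgeR adjusted p = 3.07e-06). At 12 h the values were 0.0453, 0.180 and 0.394 CPM with ATRA and 0.158, 0 and 0.115 CPM with DMSO, which overlap (1.41 ± 0.68, adjusted p = 0.0998 with edgeR; 1.74 and 0.0341 without replicate 2 of ATRA at 12 h). The means at 24 h were 0.277 ± 0.0554 CPM with ATRA and 0.124 ± 0.0910 CPM with DMSO (SD, n = 3 each), a change of 1.26 ± 0.63 that did not pass (edgeR adjusted p = 0.127). The ATRA effect on LIF was 9.31 ± 1.18 log2 units larger at 72 h than at 24 h (edgeR adjusted p = 2.81e-08), with 8.60 in the 2 replicates that shared a sequencing lane and 9.98 without replicate 5 of DMSO at 72 h. It was 2.61 ± 1.00 units smaller at 120 h than at 72 h (a change of -2.61, edgeR adjusted p = 0.0356), a call that rests on a handful of DMSO fragments. It was lost within a lane (-2.16, adjusted p = 0.224) and without replicate 2 or 4 of DMSO at 72 h (0.0641 and 0.0824) or at 120 h (0.133 and 0.1301), and was -3.23 without replicate 5 of DMSO at 72 h. LIF-AS1, on the opposite strand, averaged 0.811 CPM in ATRA libraries at 72 h and 0 CPM in DMSO libraries at 72 h, and counting was strand-specific.

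OSM, whose gene model lies 4353 bases from that of LIF on the same strand (ENSG00000099985, chr22:30262346-30284334), followed another course: up at 4 h, down at 24 h and up again from 72 h. It encodes a cytokine made mainly by activated myeloid and lymphoid cells. At 4 h OSM had 14.5, 15.3 and 15.8 CPM in ATRA libraries, against 4.33, 5.202 and 6.28 CPM in DMSO libraries. Every ATRA library was above every DMSO library, and the ATRA mean was the highest of all 11 groups (1.52 ± 0.12, edgeR adjusted p = 5.27e-13). At 12 h the groups overlapped, with 4.92 ± 0.661 CPM with ATRA and 5.23 ± 0.878 CPM with DMSO (-0.08 ± 0.13, edgeR adjusted p = 0.673). At 24 h the order turned: ATRA libraries had 1.53, 1.64 and 1.79 CPM and DMSO libraries 5.73, 5.51 and 5.81 CPM. This was the lowest OSM level of any group, and the groups did not overlap (-1.78 ± 0.16, edgeR adjusted p = 3.33e-12).

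At 72 h OSM was 7.25, 7.14 and 7.43 CPM with ATRA and 3.15, 2.71 and 2.40 CPM with DMSO (1.41 ± 0.14, edgeR adjusted p = 4.16e-11). DMSO cells at 72 h were themselves low, by -0.62 against untreated cells (edgeR adjusted p = 7.64e-04). Set against DMSO cells averaged over 24 h and 120 h, the ATRA change at 72 h was 0.40 (adjusted p = 1.61e-03). At 120 h OSM was 12.4, 10.6 and 10.1 CPM with ATRA and 5.62, 5.79 and 4.64 CPM with DMSO, again with no overlap (1.05 ± 0.13, edgeR adjusted p = 2.21e-09). The ATRA effect changed by -1.61 ± 0.18 between 4 h and 12 h, by -1.70 ± 0.21 between 12 h and 24 h and by 3.19 ± 0.21 between 24 h and 72 h (edgeR adjusted p = 1.51e-08, 1.66e-07 and 1.26e-15). The series of calls of OSM over the 5 times was found in 28 of 22971 tested genes (0.122%), OSM among them, and 92 genes (0.400%) were higher at 4 h, lower at 24 h and higher at 72 h. OSM shares 9.62% of its exon bases with CASTOR1 and AC004264.2 on the same strand, where a fragment was counted in both. CASTOR1 averaged 0.818 CPM with ATRA and 0.684 CPM with DMSO at 4 h, 0.856 and 0.755 CPM at 12 h, 0.609 and 1.03 CPM at 24 h, 2.09 and 4.10 CPM at 72 h and 1.85 and 1.69 CPM at 120 h, in the same order of groups. It lay on the same side as OSM at 4, 24 and 120 h and on the other side at 72 h, and its part in the OSM values was not tested.

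IL6 (ENSG00000136244, chr7:22725826-22748287, + strand), the cytokine gene after which the family is named, appeared only at the end of the course. At 120 h it had 117, 128 and 103 fragments in ATRA libraries (6.58, 5.82 and 4.82 CPM), against 1, 4 and 0 fragments in DMSO libraries (0.0413, 0.164 and 0 CPM). All ATRA libraries were above all DMSO libraries. The change was 6.36 ± 0.53 (edgeR adjusted p = 2.42e-12), and leaving out replicate 4 or replicate 5 of DMSO gave 7.87 and 5.73. At 72 h the ATRA libraries had 3, 3 and 8 fragments and the DMSO libraries 0, so IL6 was at least 4.62-fold higher (edgeR adjusted p = 1.28e-03). Before 72 h no group had more than 3 IL6 fragments, and a difference was not detectable at this depth.

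**Figure D1:**
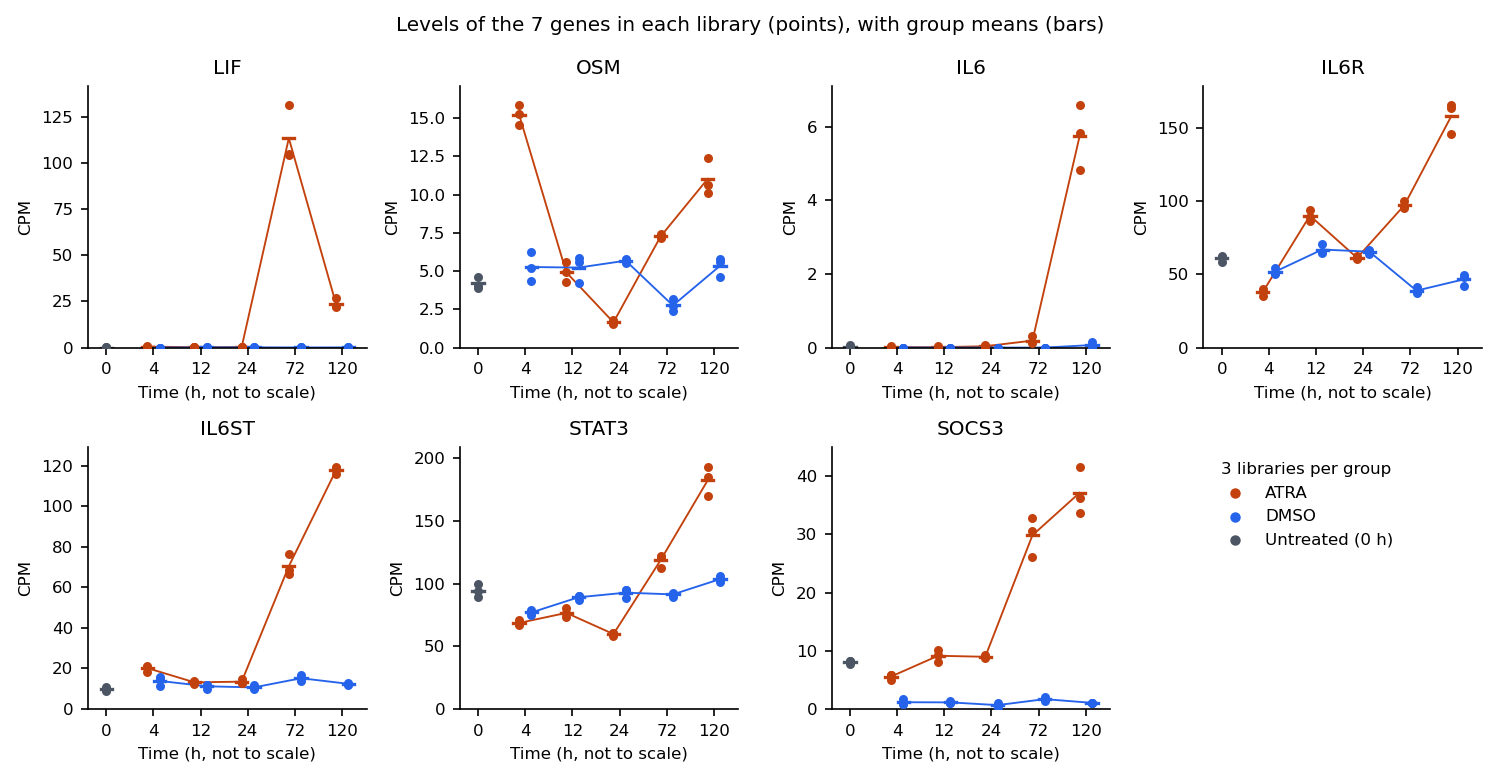
Level in CPM of each gene in each library (points) against time in hours, with bars at group means of 3 libraries and lines joining the means; ATRA points stand left of DMSO points, and the untreated libraries are at 0 h. LIF peaks at 72 h with ATRA (113.5 CPM) and IL6 appears at 120 h (5.74 CPM), while OSM is highest at 4 h (15.2 CPM) and lowest at 24 h (1.65 CPM) with ATRA.

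Of 8 other gp130 cytokine genes, chosen with earlier results of these data known, 6 were tested. At 120 h EBI3 and IL11 were higher and CLCF1 and CNTF lower, the last pair uncertain with 48.4% and 98.3% of their exon bases shared. At 72 h EBI3 and IL11 were higher. At 4, 12 and 24 h EBI3 was the only one of them that was higher. Beside this, 24.7%, 38.7%, 33.2%, 64.7% and 70.6% of all tested genes were called in either direction at 4, 12, 24, 72 and 120 h. EBI3, the subunit that joins the IL27 product to form interleukin-27, rose at all 5 times and most at the end. It had 627, 646 and 565 CPM in ATRA libraries at 120 h, against 6.99, 8.54 and 8.09 CPM in DMSO libraries. The ATRA libraries were all far above the DMSO libraries (6.28 ± 0.10, edgeR adjusted p = 2.75e-37), and the change was 5.13 at 72 h. Its partner IL27 had 7 fragments in all 33 libraries, and IL31 had 0. IL11 had 5.30 ± 0.941 CPM with ATRA and 1.35 ± 0.116 CPM with DMSO at 72 h (1.97 ± 0.21), but 87.6% of its exon bases are shared with other genes on its strand, so its value is uncertain.

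The shared receptor gene IL6ST rose at 4 h, 24 h, 72 h and 120 h. IL6ST (ENSG00000134352, chr5:55935095-55995290, − strand) had 20.9, 21.2 and 18.5 CPM with ATRA and 15.6, 14.7 and 11.4 CPM with DMSO at 4 h. These groups did not overlap (0.55 ± 0.10, edgeR adjusted p = 2.44e-05). At 12 h it had 13.2 ± 0.862 CPM with ATRA and 11.2 ± 1.07 CPM with DMSO (0.23 ± 0.10, edgeR adjusted p = 0.0728, and 0.0422 among genes of at least 1 CPM in 3 libraries). At 24 h it had 13.5 ± 0.938 CPM with ATRA and 10.7 ± 1.03 CPM with DMSO. That change of 0.35 ± 0.10 passed (edgeR adjusted p = 0.00699), but not without replicate 4 of ATRA (0.0653) or replicate 4 of DMSO (0.0699) at 24 h.

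The larger rise of IL6ST came later. At 72 h the ATRA libraries had 68.3, 66.6 and 76.2 CPM and the DMSO libraries 16.7, 13.6 and 15.3 CPM (2.21 ± 0.09, edgeR adjusted p = 9.39e-23). At 120 h they had 115.8, 119.4 and 117.8 CPM with ATRA and 12.4, 12.0 and 12.97 CPM with DMSO (3.24 ± 0.10, edgeR adjusted p = 3.38e-28). The lowest ATRA library was several times the highest DMSO library at both times. The ATRA effect grew by 1.86 ± 0.14 between 24 h and 72 h and by a further 1.03 ± 0.13 between 72 h and 120 h (edgeR adjusted p = 2.34e-14 and 2.90e-08). The IL6ST pseudogene IL6STP1 had at most 5 fragments in a library.

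IL6R (ENSG00000160712, chr1:154387281-154477791, + strand), the chain that binds IL-6, fell at 4 h, rose at 12 h, showed no called change at 24 h and rose again from 72 h. At 4 h it had 40.1, 38.6 and 35.4 CPM with ATRA and 50.6, 50.8 and 54.3 CPM with DMSO, with every ATRA library lower (-0.45 ± 0.07, edgeR adjusted p = 1.68e-06). At 12 h it had 89.5, 94.4 and 86.9 CPM with ATRA and 64.9, 70.6 and 65.7 CPM with DMSO, with every ATRA library higher (0.43 ± 0.07, edgeR adjusted p = 1.12e-06). The 24 h means were 61.4 ± 1.10 CPM with ATRA and 65.6 ± 1.54 CPM with DMSO (-0.10 ± 0.07, edgeR adjusted p = 0.288). IL6R then had 97.3 ± 2.63 CPM with ATRA and 38.9 ± 2.45 CPM with DMSO at 72 h (1.32 ± 0.07, edgeR adjusted p = 5.24e-20). That DMSO mean was the lowest of the DMSO groups, by -0.65 against untreated cells (edgeR adjusted p = 2.04e-10), so part of the 72 h change lay in a low control. At 120 h IL6R had 163.9, 165.7 and 145.9 CPM with ATRA and 49.5, 48.5 and 42.0 CPM with DMSO (1.77 ± 0.07, edgeR adjusted p = 1.63e-24). The 4 changes of its ATRA effect between neighbouring times all passed, at 0.88, -0.52, 1.42 and 0.44, and 16 of 22971 tested genes (0.0697%), IL6R among them, had this series of calls.

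The chains that LIF and oncostatin M need besides gp130 were at or near 0. LIFR had 1 fragment and OSMR 2 fragments in all 33 libraries together, and neither could be tested. CNTFR, the ciliary neurotrophic factor chain, had 36 fragments. Against this, IL11RA and IL27RA were present in every group, at 30.6 to 67.9 CPM and 34.9 to 75.5 CPM (group means), and 77.5% of the exon bases of IL11RA are shared with other genes. IL27RA, which pairs with gp130 for interleukin-27, was lower with ATRA at 4, 12, 24 and 120 h and higher at 72 h, by -0.28, -0.27, -0.55, -0.55 and 0.37.

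IL31RA was the other receptor gene that responded strongly, and its known partner chain is OSMR. At 12 h it had 39.05, 39.99 and 33.997 CPM with ATRA and 1.58, 1.30 and 1.34 CPM with DMSO, well apart (4.75 ± 0.14, edgeR adjusted p = 2.86e-27). It was higher at all 5 times, with changes of 3.94, 4.75, 3.29, 2.99 and 3.27 at 4, 12, 24, 72 and 120 h. In the list of 6 other receptor genes, 3 were tested, of which 1 rose and 1 fell at 4 h and at 120 h, and 2 rose and 1 fell at 12, 24 and 72 h. Of all tested genes, 24.7%, 38.7%, 33.2%, 64.7% and 70.6% were called at 4, 12, 24, 72 and 120 h.

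**Figure D2:**
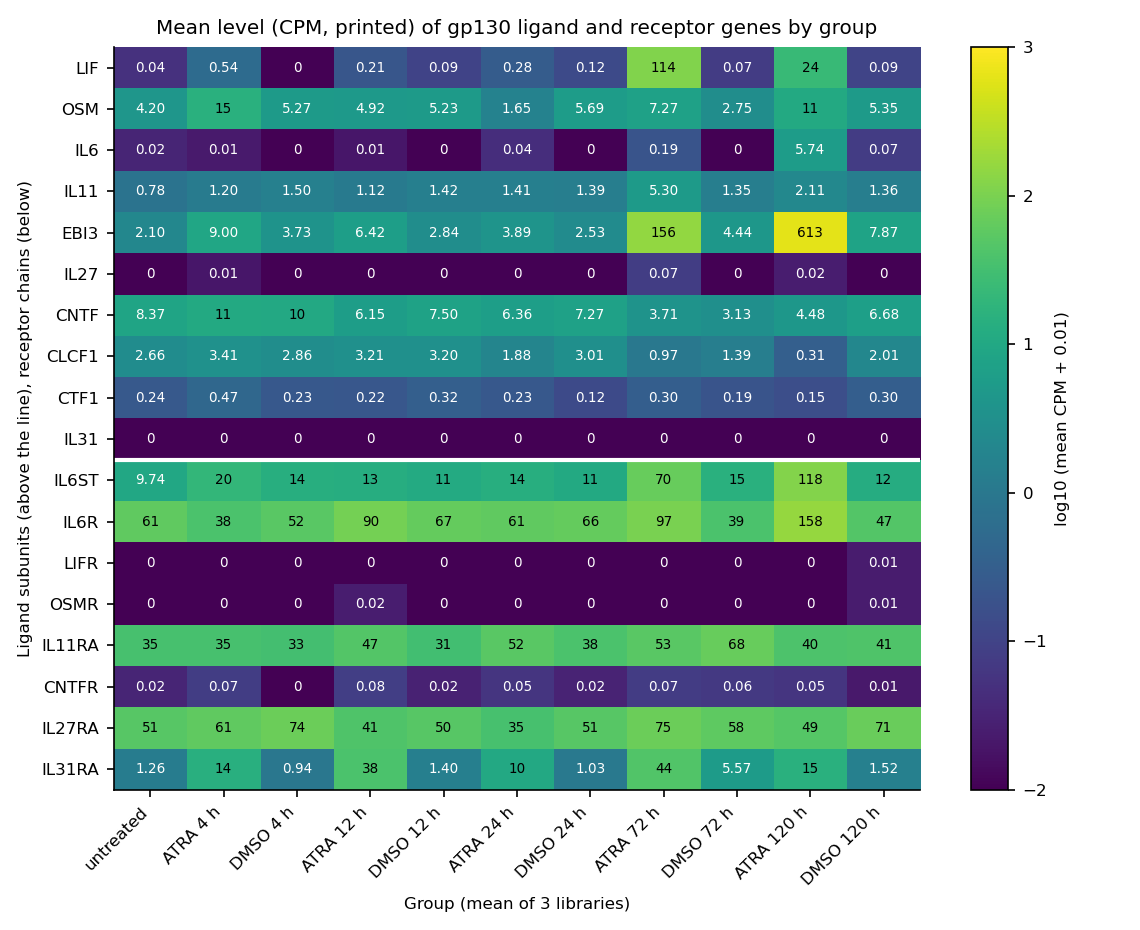
Mean CPM of 3 libraries per group (printed in each cell, with colour on a log10 scale after adding 0.01) for gp130 ligand genes above the white line and receptor genes below it. LIF, EBI3 and IL6ST are brightest with ATRA at 72 h or 120 h, while the LIFR and OSMR rows stay at 0 to 0.02 CPM in all 11 groups.

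Of 4 genes of receptor shedding, by which membrane receptors such as that of IL-6 are released, RHBDF2 rose at all 5 times. RHBDF2, a carrier protein of the protease ADAM17, had 125.5 ± 3.47 CPM with ATRA and 11.8 ± 0.330 CPM with DMSO at 120 h (3.42 ± 0.10, edgeR adjusted p = 3.44e-28). ADAM17 and ADAM10, the proteases themselves, rose at 72 h (1.37 and 0.91) and 120 h (1.35 and 1.34). They were the only others of the 4 to rise, and RHBDF1 fell at 72 h. The share of all tested genes called in either direction was 24.7%, 38.7%, 33.2%, 64.7% and 70.6% at 4, 12, 24, 72 and 120 h.

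STAT3 (ENSG00000168610, chr17:42307830-42389063, − strand), the transcription factor at the end of the pathway, was lower with ATRA up to 24 h and higher from 72 h. At 4 h it had 67.2, 67.9 and 70.7 CPM with ATRA and 75.3, 76.7 and 78.9 CPM with DMSO. The groups did not overlap and the change was small (-0.17 ± 0.06, edgeR adjusted p = 0.0313). That call was lost with no filter on low counts (0.162), with the 2 groups fitted alone (0.0998), and without replicate 2 (0.122) or 4 (0.1203) of ATRA at 4 h, replicate 4 (0.0670) or 5 (0.0961) of DMSO at 4 h or replicate 4 of untreated cells (0.0517). At 12 h STAT3 had 76.6 ± 3.58 CPM with ATRA and 89.1 ± 1.603 CPM with DMSO (-0.22 ± 0.06, edgeR adjusted p = 0.00236).

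At 24 h STAT3 had 60.3, 58.4 and 60.5 CPM with ATRA and 88.4, 94.7 and 95.1 CPM with DMSO, well apart (-0.63 ± 0.06, edgeR adjusted p = 9.73e-12). At 72 h the order was the other way, with 118.7 ± 5.32 CPM with ATRA and 91.3 ± 1.59 CPM with DMSO (0.38 ± 0.06, edgeR adjusted p = 3.31e-07). At 120 h it had 184.6, 192.9 and 169.5 CPM with ATRA and 103.9, 105.8 and 100.9 CPM with DMSO (0.82 ± 0.06, edgeR adjusted p = 5.27e-16). The ATRA effect changed by -0.42 ± 0.08 between 12 h and 24 h, by 1.01 ± 0.08 between 24 h and 72 h and by 0.44 ± 0.08 between 72 h and 120 h (edgeR adjusted p = 5.33e-04, 2.79e-13 and 2.49e-05). The series of calls of STAT3 was found in 81 of 22971 tested genes (0.353%), STAT3 among them.

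Of 15 other kinases, STATs and adaptors, 13 were tested. The number that rose and fell with ATRA was 3 and 2 at 4 h, 6 and 4 at 12 h and at 24 h, and 9 and 4 at 72 h and at 120 h, beside 24.7%, 38.7%, 33.2%, 64.7% and 70.6% of all tested genes called in either direction. JAK2, a kinase that gp130 carries, had 184.2 ± 18.3 CPM with ATRA and 18.5 ± 1.66 CPM with DMSO at 120 h (3.31 ± 0.10). GAB2, a docking adaptor, was lower at 24 h and 72 h (-1.04 ± 0.08 and -2.45 ± 0.08). It had 29.3 CPM with ATRA and 60.0 CPM with DMSO at 24 h, and 40.5 and 220.8 CPM at 72 h. That DMSO level at 72 h was the highest of all groups. JAK3 and GAB1 had 24 and 16 fragments in all and were not tested.

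SOCS3 was the one member that was higher with ATRA than with DMSO at all 5 times. SOCS3 (ENSG00000184557, chr17:78344268-78360925, − strand) had 5.86, 5.00 and 5.87 CPM with ATRA and 0.9002, 0.879 and 1.75 CPM with DMSO at 4 h, without overlap (2.22 ± 0.19, edgeR adjusted p = 1.68e-12). At 12 h and 24 h the means were 9.15 ± 0.998 and 8.97 ± 0.226 CPM with ATRA and 1.15 ± 0.177 and 0.679 ± 0.278 CPM with DMSO, for changes of 2.97 ± 0.17 and 3.70 ± 0.20 (edgeR adjusted p = 1.45e-17 and 6.24e-19). At 72 h it had 30.7, 32.7 and 26.2 CPM with ATRA and 2.05, 1.34 and 1.73 CPM with DMSO (4.13 ± 0.16, edgeR adjusted p = 2.13e-24; 5.11 against DMSO cells averaged over 24 h and 120 h). At 120 h it had 36.2, 41.6 and 33.7 CPM with ATRA and 1.07, 1.03 and 1.11 CPM with DMSO (5.11 ± 0.17, edgeR adjusted p = 6.37e-27). No ATRA library overlapped a DMSO library at any time, and 1151 of 22971 tested genes (5.01%), SOCS3 among them, were called higher at all 5 times. The growth of the ATRA effect passed between 72 h and 120 h (0.98 ± 0.26, edgeR adjusted p = 0.00257) but not between 4 h and 12 h (0.76 ± 0.28, 0.0641), 12 h and 24 h (0.72 ± 0.30, 0.157) or 24 h and 72 h (0.43 ± 0.30, 0.249). The second of these passed without replicate 5 of DMSO at 24 h (1.16, adjusted p = 0.0367) and the first with DESeq2 (0.0458) and without 1 of 3 libraries: DMSO replicate 2 (0.0373) or 4 (0.0258) at 4 h, or ATRA replicate 2 at 12 h (0.0499).

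Against untreated cells at 0 h, SOCS3 was lower in DMSO cells at all 5 times and higher in ATRA cells only at 72 h and 120 h. Untreated cells were not a control matched in time, and what moved SOCS3 in either arm was not tested. Untreated cells had 8.32, 7.79 and 8.24 CPM of SOCS3, and each DMSO group was far below them. The change in DMSO cells against untreated cells was -2.76 ± 0.18 at 4 h and -2.79 ± 0.18 at 12 h (edgeR adjusted p = 2.80e-15 and 1.93e-15), when all libraries came from 1 sequencing lane. It was -3.55, -2.25 and -2.91 at 24, 72 and 120 h, where lane and time cannot be told apart. Against untreated cells, a comparison added after these levels were seen, ATRA cells were lower at 4 h (-0.55 ± 0.14, edgeR adjusted p = 0.00136; 45.3% of all tested genes called). They did not pass at 12 h (0.18 ± 0.13, edgeR adjusted p = 0.251) or 24 h (0.15 ± 0.13, 0.390), where 50.6% and 45.2% of all tested genes were called. They were higher at 72 h (1.88 ± 0.12) and 120 h (2.20 ± 0.12), where 69.8% and 72.7% were called, and where, as at 24 h, lane and time cannot be told apart. A DMSO library at any time was thus below every untreated library, and an ATRA library at 72 h or 120 h above every untreated library.

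LIF and IL6 had too few fragments in DMSO and untreated cells for a comparison of sizes. Members that were higher and lower in DMSO cells numbered 1 and 3 at 4 h, 0 and 1 at 12 h, 1 and 1 at 24 h, 1 and 3 at 72 h and 1 and 2 at 120 h, where 31.4%, 22.7%, 19.1%, 51.6% and 21.9% of all tested genes were called. IL6ST was the higher one at 4 h (0.50 ± 0.10), 72 h (0.64 ± 0.10) and 120 h (0.35 ± 0.10), and OSM at 24 h (0.43 ± 0.14). IL6R was lower at 4, 72 and 120 h (-0.24, -0.65 and -0.39), STAT3 at 4 h (-0.30 ± 0.06) and OSM at 72 h. The OSM call at 24 h was lost without the lane 2 libraries (edgeR adjusted p = 0.0502), which left lane 3 DMSO libraries against lane 4 untreated libraries. It was also lost without replicate 2 (0.0662) or 4 (0.121) of untreated cells or replicate 5 of DMSO (0.0753). The IL6ST call at 120 h was lost without replicate 2 (0.0661) or 5 (0.0605) of untreated cells or replicate 5 of DMSO (0.0638), and the IL6R call at 4 h with no filter on low counts (0.0540).

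The other 14 negative regulators moved in both directions. Those that rose and fell with ATRA numbered 3 and 4 at 4 h, 3 and 6 at 12 h, 3 and 4 at 24 h, and 5 and 7 at 72 h and at 120 h. Of all tested genes, 24.7%, 38.7%, 33.2%, 64.7% and 70.6% were called at those 5 times. The median change of the list lay between -0.20 and -0.08. SOCS1, an inhibitor of Janus kinases, rose at 4 h to 4.33 ± 0.719 CPM with ATRA, against 1.29 ± 0.658 CPM with DMSO (1.73 ± 0.21, edgeR adjusted p = 2.07e-08). SOCS2, which restrains growth hormone signalling, fell at 120 h to 0.586 ± 0.177 CPM with ATRA, against 9.23 ± 0.388 CPM with DMSO (-4.00 ± 0.17, edgeR adjusted p = 1.03e-22). PTPN6, a phosphatase that acts on Janus kinases in blood cells, rose at all 5 times, by 0.77 to 2.17, and shares 27.7% of its exon bases with other genes. SOCS7, which fell at 72 h and 120 h (-1.20 and -1.29), shares all of its exon bases with other genes on its strand and is uncertain.

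Of 18 genes known as STAT3 targets, all tested, 9 rose and 4 fell at 4 h, 9 and 2 at 12 h, 9 and 4 at 24 h, and 15 and 2 at 72 h and at 120 h. At these times 24.7%, 38.7%, 33.2%, 64.7% and 70.6% of all tested genes were called, and the difference from that share was not tested. Their median change was 0.22, 0.26, 0.33, 2.77 and 1.79 at 4, 12, 24, 72 and 120 h, and that of all tested genes 0.00, 0.03, 0.02, -0.02 and -0.03. IRF1, an interferon-responsive transcription factor, had 128.2 ± 1.04 CPM with ATRA and 26.8 ± 1.46 CPM with DMSO at 4 h (2.26 ± 0.07, edgeR adjusted p = 2.08e-26). MYC, the proliferation-driving transcription factor, had 124.7 ± 3.06 CPM with ATRA and 420.4 ± 42.1 CPM with DMSO at 4 h (-1.75 ± 0.08, edgeR adjusted p = 3.17e-20). Its mean stayed lower with ATRA late, at 153.9 and 706.7 CPM with ATRA and DMSO at 72 h and 58.6 and 497.3 CPM at 120 h. The means of CEBPD at 72 h (29.2 and 61.6 CPM) and CCND1 at 120 h (50.4 and 65.2 CPM) were also lower with ATRA. PIM1, a survival kinase, rose at 24 h (2.37 ± 0.13), and BCL6, a transcriptional repressor, had 115.2 ± 1.62 CPM with ATRA and 1.53 ± 0.279 CPM with DMSO at 120 h (6.25 ± 0.14). MCL1, a survival protein of the BCL2 family, rose at 72 h (2.95 ± 0.06), and shares 11.5% of its exon bases with other genes. LRG1, a secreted glycoprotein, TIMP1, an inhibitor of matrix proteases, and CEBPB, a myeloid transcription factor, were also among the most changed, with 100%, 20.6% and 100% of their exon bases shared, so that LRG1 and CEBPB in particular are uncertain. Many of these genes are also targets of other factors.

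**Figure D3:**
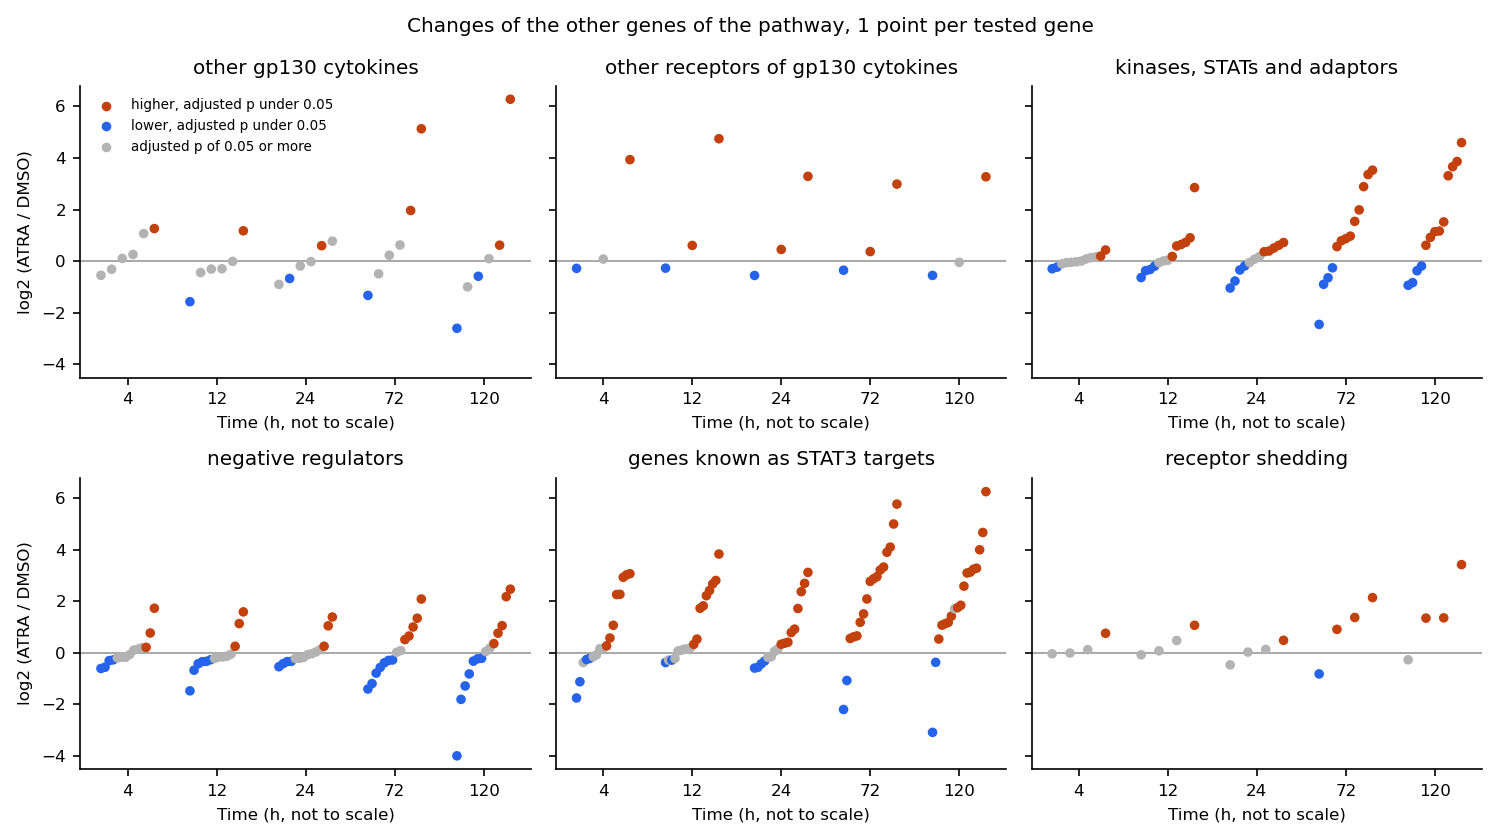
Log2 change in ATRA against DMSO (y axis) at each time in hours (x axis) for every tested gene of 6 pathway lists that had more than 3 fragments in both groups, with orange points higher and blue points lower at an edgeR adjusted p under 0.05. The STAT3 target list goes to 15 higher and 2 lower genes at 72 h and 120 h, while the negative regulators are divided at all times.

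The members moved apart at early times and together at late times. With ATRA against DMSO, 4 of 7 were higher and 2 lower at 4 h, where 24.7% of all tested genes were called, 2 and 1 at 12 h (38.7%), and 2 and 2 at 24 h (33.2%). At 72 h and at 120 h all 7 were higher, where 64.7% and 70.6% of all tested genes were called in either direction and 32.1% and 34.9% were called higher. The median change of the members, with LIF at 4 h and IL6 at 72 h at their bounds, was 1.03, 0.33, 0.13, 2.21 and 3.24 at 4, 12, 24, 72 and 120 h. At 4, 12 and 24 h that median leaves out IL6, which had too few fragments. Between neighbouring times, the ATRA effect became higher in IL6R and lower in OSM and LIF from 4 h to 12 h (14% of all genes called; no size is given for LIF, which had 0 DMSO fragments at 4 h), lower in 3 from 12 h to 24 h (6.9%), higher in 5 from 24 h to 72 h (45.9%), and higher in 4 and lower in 1 from 72 h to 120 h (39.3%). The first of these counts was 5 without replicate 2 of DMSO at 4 h.

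**Figure D4:**
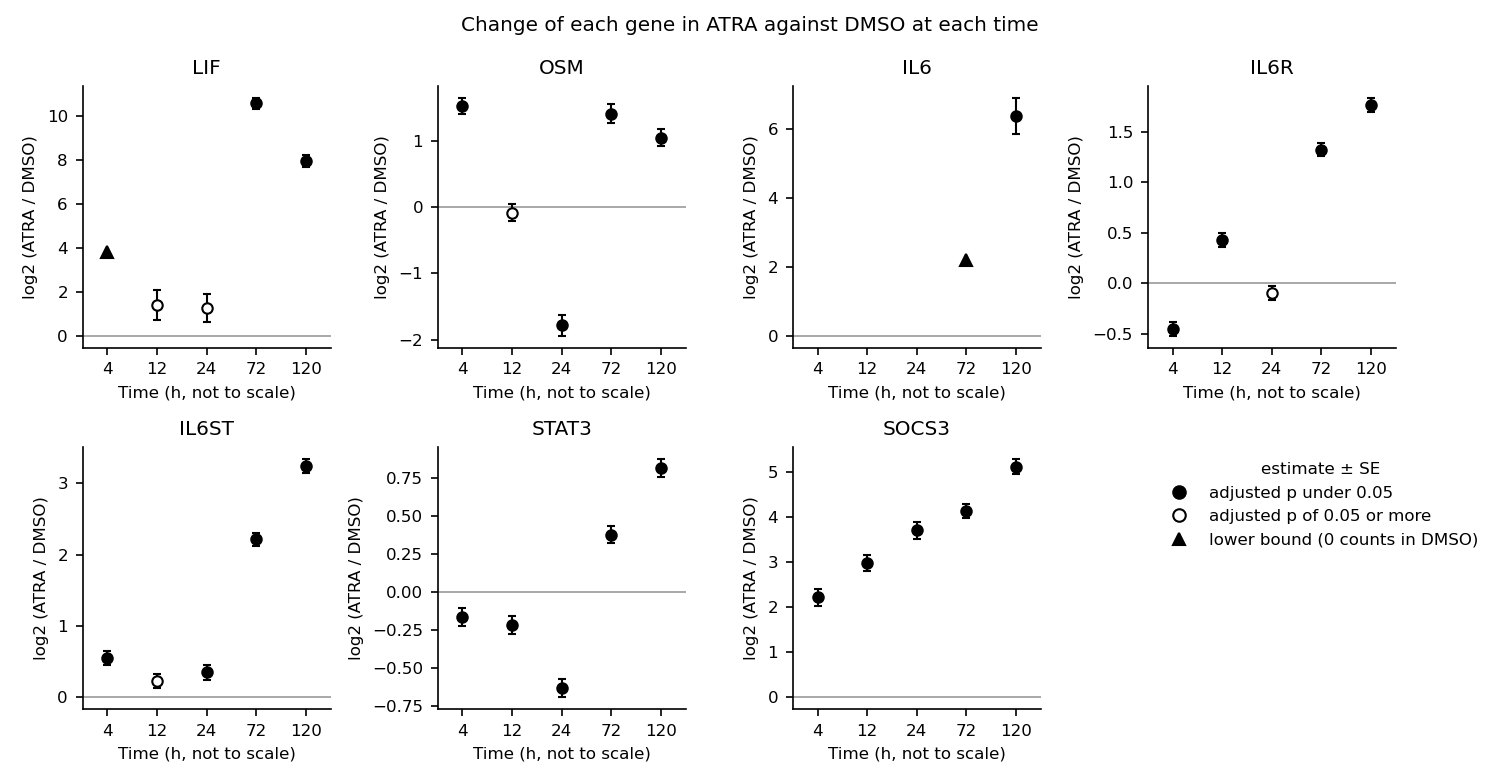
Log2 change in ATRA against DMSO (y axis, a scale of its own in each panel) at each time in hours for the 7 genes, as estimate ± SE from 3 libraries per group; filled circles have an edgeR adjusted p under 0.05, and triangles are lower bounds where DMSO had 0 fragments. All 7 genes are above 0 at 72 h and 120 h, and OSM, IL6R and STAT3 are below 0 at 24 h, IL6R with an open circle. The SE of LIF at 72 h and 120 h, against few DMSO fragments, is too small.

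Comparing levels between genes needs a length, and the merged gene models of the table are longer than known transcripts (17140 bases for LIF, 20321 for IL6ST and 16946 for IL6R, against 3969, 9057 and 5914 bases in the longest basic GENCODE transcript). Per kilobase of that transcript, ATRA cells at 120 h had 36.1 ± 2.35 CPM of STAT3, 26.8 ± 1.85 of IL6R, 13.6 ± 1.48 of SOCS3 and 12.99 ± 0.197 of IL6ST. DMSO cells at 120 h had 20.5 ± 0.488 CPM per kilobase of STAT3, 7.89 ± 0.689 of IL6R, 0.391 ± 0.0148 of SOCS3 and 1.38 ± 0.0543 of IL6ST. STAT3 led and IL6R followed in both groups, and SOCS3 and IL6ST were within their spread of each other with ATRA. LIF at its peak, 28.6 ± 3.89 CPM per kilobase with ATRA at 72 h, exceeded OSM at its own peak, 8.21 ± 0.352 with ATRA at 4 h. With the table's lengths instead, ATRA cells at 120 h had 9.79 ± 0.536 length-scaled units (TPM) of IL6ST and 6.13 ± 0.743 TPM of SOCS3, so that the order of that pair depends on the gene model.

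Over the 11 group means of log2 CPM, which share libraries and a time axis, LIF resembled IL6ST most among the members (Pearson r = 0.94), and OSM had r = 0.23 to 0.51 with the others, the lowest value for each of them but STAT3, which had 0.38 with SOCS3. Among 13418 tested protein-coding genes, those close to the members by this measure included ZNF136 to OSM (r = 0.889), ADGRF4 to IL6 (0.997), UBQLN2 to IL6R (0.966), BTNL3 to IL6ST (0.992), ARID5B to STAT3 (0.985) and NEURL2 to SOCS3 (0.962). These are descriptions over 11 points of 1 course. Others were PFKFB2 and IGFN1 to LIF (r = 0.981 each), TLR8 and VNN2 to IL6, PHETA1 and EDN1 to IL6ST, and SPATA25 and PTPN6 to SOCS3.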

How the data were processed

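The members and gene lists were chosen with earlier results of these data known. Stranded total RNA libraries (33, sequenced as 150 bp pairs, per the labels' protocols) gave raw fragment counts. To make them, the authors ran featureCounts 1.5.1 on read pairs with strand, counting a fragment in every gene it overlapped, per the file headers. Gene models merged Ensembl and FANTOM CAT on GRCh38, per the file headers. Trimmomatic 0.36, STAR 2.5.2b and Subread 1.5.1 are in the submitters' processing notes. Symbols came from GENCODE 29 (57447 of 58970 Ensembl identifiers matched). Upstream sequences came from RefSeq (GRCh38.p14).

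The tests used edgeR 4.0.16 (R 4.3.3) on the deposited counts: filterByExpr (22971 genes), TMM scaling (factors 0.827 to 1.108) and 1 quasi-likelihood fit over all libraries, checked on simulated data. P-values were Benjamini-Hochberg adjusted over all tested genes, with a threshold of 0.05. The SE is that implied by the F statistic, and is too small for a large change against few fragments. A fold against 0 counts used a floor of 3 counts over the group, for counting error only. Per-kilobase levels used the deposited gene lengths or GENCODE transcript lengths. Of each pathway list, up to 3 genes of smallest p at each time could be named, and a few such results are not reported here. Libraries at 0, 4 and 12 h came from lane 4. From 24 h on, replicate 2 came from lane 2 and replicates 4 and 5 from lane 3, per the file headers, so ATRA and DMSO are balanced over lanes. Alternatives were RLE scaling, DESeq2 1.42.0, limma-voom 3.58.1, other filters and a replicate block. Others were the compared groups alone, no mitochondrial or small RNA genes, no lane 2 libraries, another control at 72 h and each library left out.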

Additional observations from a re-analysis of the deposited data

Results flagged for a closer look

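The ATRA effect on a member, as log2 ATRA against DMSO, differed between neighbouring times in 15 cases that have an estimate, by a test of the difference itself (edgeR, adjusted over 22971 genes). The effect on LIF from 4 h to 12 h also passed (adjusted p = 0.0226), with no size because DMSO had 0 fragments at 4 h. Each is a value with no explanation tested. From 4 h to 12 h it changed by 0.88 for IL6R and by -1.61 for OSM, so that IL6R went to the other side of 0. From 12 h to 24 h it changed by -0.42 for STAT3, by -0.52 for IL6R and by -1.70 for OSM. From 24 h to 72 h it changed by 1.86 for IL6ST, 1.01 for STAT3, 1.42 for IL6R, 3.19 for OSM and 9.31 for LIF, where STAT3 and OSM turned from lower to higher. From 72 h to 120 h it changed by 1.03 for IL6ST, 0.44 for STAT3, 0.44 for IL6R, 0.98 for SOCS3 and -2.61 for LIF. The LIF call rests on a handful of DMSO fragments. That call was lost within a lane and without replicate 2 or 4 of DMSO at 72 h or at 120 h. Groups had 3 libraries, so single libraries that stand apart were not tested for.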

How the results depend on the processing

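Of 103 member changes, 83 had an estimate. With RLE scaling, limma-voom, no mitochondrial or small RNA genes and the replicate block, each kept its direction and its side of the threshold, and calls lost under other settings stand beside the results. For the replicate block, correlations between same-numbered ATRA and DMSO libraries ran from -0.019 to 0.2, and most were below 0.1. The labels do not pair the numbers. Still, 10 of 15 ATRA and 9 of 15 DMSO libraries correlated best with their own number, a hint from the data. Blocked, 6, 3, 4, 7 and 7 members were called at 4, 12, 24, 72 and 120 h, the counts without the block. Members called in DMSO at 24 h against untreated cells were 1 without the lane 2 libraries (2 otherwise) and 1 to 2 with 1 library left out. Without lane 2, comparisons with untreated, 4 h or 12 h cells still set lane 3 against lane 4. With 1 library left out, members called were 1 to 2 at 12 h in DMSO against untreated cells and 2 to 5 in the change from 4 h to 12 h, and all genes called in DMSO at 120 h against untreated cells 3214 to 5735. Among genes of at least 1 CPM in 3 libraries, OSM in DMSO at 4 h (0.34, adjusted p = 0.0455) and STAT3 in DMSO at 120 h (0.14, 0.0349) against untreated cells passed as well. With 1 library left out, OSM in DMSO at 4, 12 and 120 h against untreated cells passed once each (0.0233, 0.0263 and 0.0492), and so did IL6ST in the change from 4 h to 12 h (0.04999). Reversed values were all near 0 or of few fragments, and the cause was not tested. STAT3 in DMSO at 24 h against untreated cells was 0.0170 without the lane 2 libraries and -0.0626 to 0.0121 with 1 library left out (-0.03 otherwise). LIF in the change from 12 h to 24 h was 0.46 without the lane 2 libraries and -0.81 to 0.67 with 1 library left out (-0.14 otherwise). SOCS3 in the change from 24 h to 72 h was -0.0142 to 0.72 (0.43 otherwise). Without scaling, levels were 0.855 to 1.10 times those given. Depth limits LIF before 72 h and IL6 before 120 h to differences of several fold.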
